A study of Mus musculus with 12 samples.

Results

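The ion channel subunit genes of the mouse hippocampus were examined across loss of the transcription factors CREB and CREM and across kainate treatment. Members were the probe sets with 1 gene symbol in the platform annotation that begins with Kcn, Scn, Cacn, Hcn, Clcn, Trpc, Trpm or Trpv. Kcnj2, Kcnq3, Kcnq5, Scn3b and Scn8a were left out by the rule. It found 49 of the 11868 probe sets on the array (control probe sets aside), for 43 of its 5928 singly named genes. Of these, 27 probe sets for 26 genes reached a log2 value of 4 on at least 3 of the 12 arrays and were tested, and 22 did not. The rule reads symbols and no values, but it was written with earlier results of these data known, among them the kainate response of Kcnj2, which it leaves out. The prefix also took in 3 transcripts that are no channel subunits: Kcnmb4os1 and Kcnmb4os2, which lie opposite Kcnmb4, and Kcnq1ot1, a long noncoding RNA opposite Kcnq1.

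Hippocampal RNA was hybridised to 12 Affymetrix arrays (the C array of the U74 mouse set), 3 per group. The 4 groups were mutant mice lacking CREB and CREM given kainate, mutant mice given saline, control mice given kainate and control mice given saline. Kainate was injected into the peritoneum at 20 mg/kg and the animals were killed 1 hour later. All groups were littermates of both sexes, 5 to 6 weeks old, caged alone and handled for 5 days, and each array carried the pooled RNA of 3 animals. The alleles of the mutants, the cells in which the genes were deleted and the controls' exact genotype are not stated in these sources. The arrays are called biological replicates in the labels, so p-values measure the spread between pools.

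Voltage-gated potassium, sodium and calcium channels are built from a pore-forming subunit, which senses voltage and conducts the ion, and from auxiliary subunits that set its gating and its delivery to the membrane. Sodium and calcium channels depolarise a neuron, while potassium channels, among them inward rectifiers and calcium-activated channels, repolarise it or hold it at rest. Kainate activates glutamate receptors of the hippocampus and causes seizures, and CREB and CREM bind cAMP response elements in promoters of genes that respond to neuronal activity.

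The values are GCRMA expression values on a log2 scale, so a difference of 1 is a doubling. Array medians lay between 3.26 and 3.41. Mutant kainate replicate 3 stood apart, with an SD over the array's probe sets of 1.54 against 1.74 to 1.81 on the others. The array labelled control kainate replicate 3 read 12.95 for the astrocyte gene Gfap, against 10.75 to 11.59 on the other 5 control arrays and 12.22 to 13.03 on the mutant arrays other than mutant kainate replicate 3, which read 11.55. Results were therefore also computed without both arrays. The replicate 1 arrays differed from those of replicates 2 and 3 and were treated as a batch seen in the data. The labels call the tissue hippocampus. The markers set for the dentate gyrus and CA1 had no probe set in use here, the CA3 marker Cpne4 read 4.31 to 4.69, and the 1 neuronal marker on the array, Nefl, lay under the filter at 2.67 to 2.78.

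Channel genes passed the filter more often than the array as a whole, with 55.1% of the 49 members against 29.8% of all probe sets. All probe sets include 4001 with no symbol, which the rule could not take. Among singly named genes the gap was smaller, with 26 of 43 member genes against 2387 of 5928. Of the members, 24 reached 4 on all 12 arrays, and 24 reached 5 on at least 3 arrays. Pore-forming subunits of voltage-gated potassium channels passed for 7 of 10 probe sets: Kcna1, a low-threshold axonal channel, Kcnc1, a channel of fast-spiking cells, Kcnd1, Kcnd2 and Kcnd3, which carry A-type current, Kcnh1, of the ether-à-go-go family, and Kcnv1, a silent subunit that modifies others. All 3 auxiliary subunits of these channels passed (Kcnab3, Kcne2 and Kcnip2), as did all 4 inward rectifiers (Kcnj4, Kcnj9, Kcnj11 and Kcnj14). Of 6 probe sets for calcium- or sodium-activated potassium channels, 2 passed: Kcnma1, the pore of the large-conductance channel, and Kcnmb4, its neuronal auxiliary subunit. The sodium channel genes Scn2a, a pore, and Scn2b, an auxiliary subunit, gave 2 of 6 probe sets. Both calcium channel pores passed (Cacna1c, an L-type pore, and Cacna1i, a T-type pore), with 4 of 5 probe sets of auxiliary and related subunits: Cacnb1, both for Cacnb4, and Cacng2, which is best known as an AMPA receptor partner. The chloride channel gene Clcn2 passed. Neither Hcn2 nor any of 3 two-pore-domain or 5 Trp probe sets did.

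Of the 22 probe sets under the filter, 20 were below 4 on every array and 2 reached it on 1 or 2 arrays. Their array values lay between -0.3 and 4.03. Just outside the filter were Scn7a, Kcnt1 and Kcnk12, whose third-highest array values were 3.94, 3.86 and 3.86. Just inside it were Kcnd2, Kcnj14 and Kcnmb4os2, at 4.67, 4.71 and 4.75. Probe sets of a gene did not always share a side: Kcnc1, Kcnmb4 and Scn2a each had 1 on either side. The others under the filter were Cacng8, Hcn2, Kcna5, Kcna6, Kcnk10, a further probe set for Kcnk12, Kcnmb4os1, both for Kcnn2, Scnn1a, Scnn1g, Trpc1, Trpm1, Trpm3, Trpm7 and Trpv3. A low value limits what this probe set could measure and does not show that the gene is silent.

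**Figure D1:**
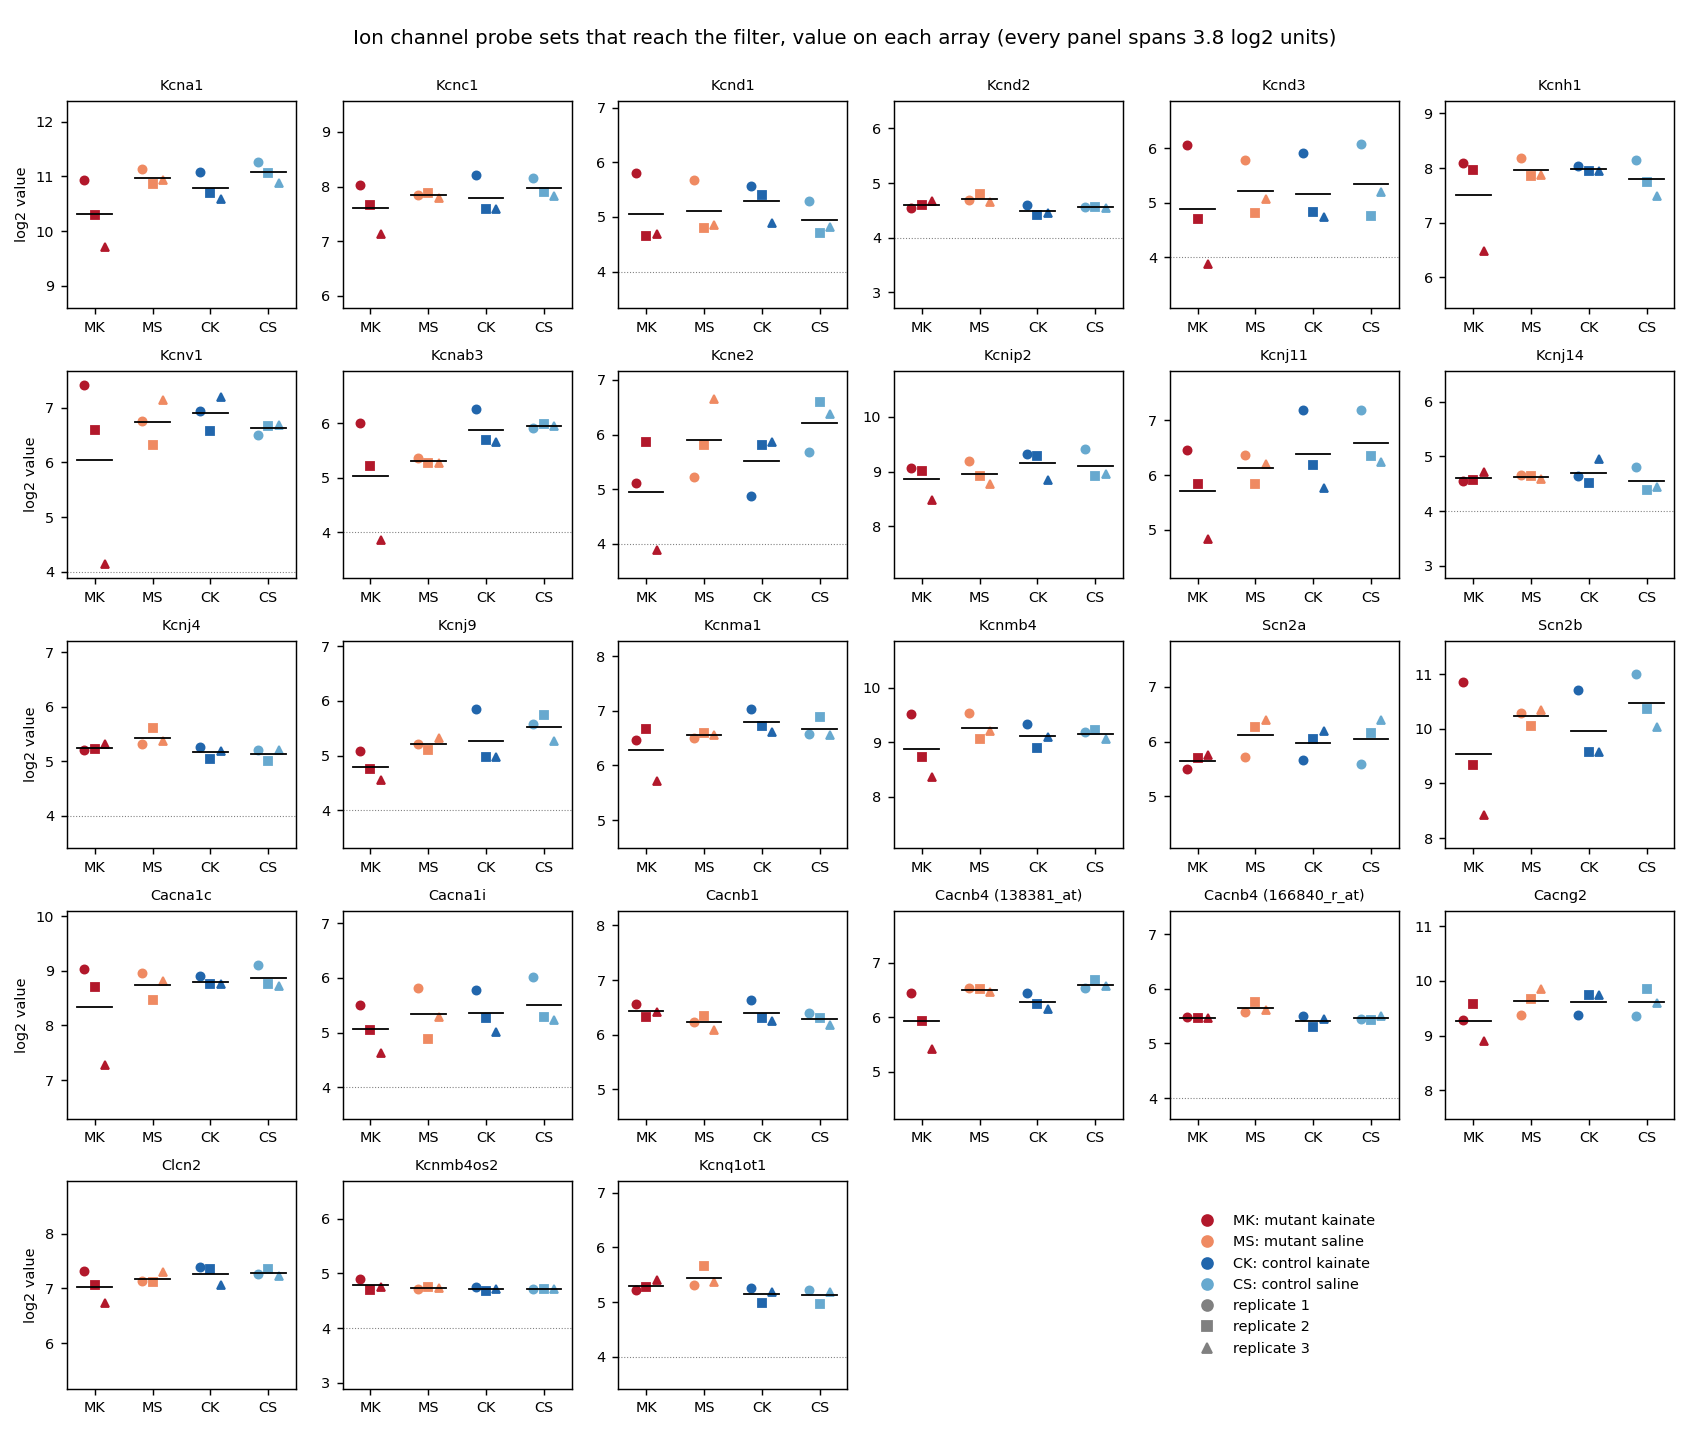
Log2 values of the 27 measured channel probe sets on each of the 12 arrays, 1 panel per probe set, with the groups MK (mutant kainate), MS (mutant saline), CK (control kainate) and CS (control saline) from left to right, marker shapes for replicates, bars at group means and a dotted line at the filter of 4. The red triangle, mutant kainate replicate 3, is the lowest of the 12 arrays for 18 of 27 members.

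The members differed in how much they varied within a group. The SD within groups, pooled over the 4 groups, had a median of 0.311 over the 27 members and ran from 0.0566 for Kcnmb4os2 to 0.888 for Kcnv1. The median SE of a kainate difference within a genotype was 0.239 for the members and 0.166 for all probe sets tested. Over all 12 arrays, 3 members spanned less than 0.5 and 16 spanned at least 1. Kcnv1 spanned the most, 3.26. Its arrays read 7.41, 6.60 and 4.15 in mutant mice given kainate, 6.75, 6.32 and 7.14 in mutant mice given saline, 6.94, 6.57 and 7.19 in control mice given kainate, and 6.51, 6.67 and 6.68 in control mice given saline. The low value is mutant kainate replicate 3 alone. That array was the lowest of the 12 for 18 of 27 members (66.7%), against 38.9% of all probe sets tested. For 22 members it was under the average of mutant kainate replicates 1 and 2, with a median gap of -0.65 and a largest gap of -2.85, that of Kcnv1. Among the 22 members under the filter the order was the opposite, with this array the highest for 15 (68.2%, against 75.4% of all probe sets under the filter).

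The batch also touched the members. On average over the 4 groups, 22 of 27 were higher on replicate 1 arrays than on those of replicates 2 and 3. For 5 of them (18.5%) the 4 replicate 1 arrays lay above all 8 others, against 6.78% of all probe sets tested, and for 0 they lay below, against 2.29%. Kcnd3 differed most, by 1.21, with 5.79 to 6.07 on replicate 1 arrays and 3.87 to 5.19 on the others. Kcnj11, the pore of the ATP-sensitive potassium channel, differed by 0.90, Cacna1i by 0.70, Cacna1c by 0.47 and Kcnh1 by 0.46. Kcne2 ran the other way, at -0.63, with overlapping arrays.

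**Figure D2:**
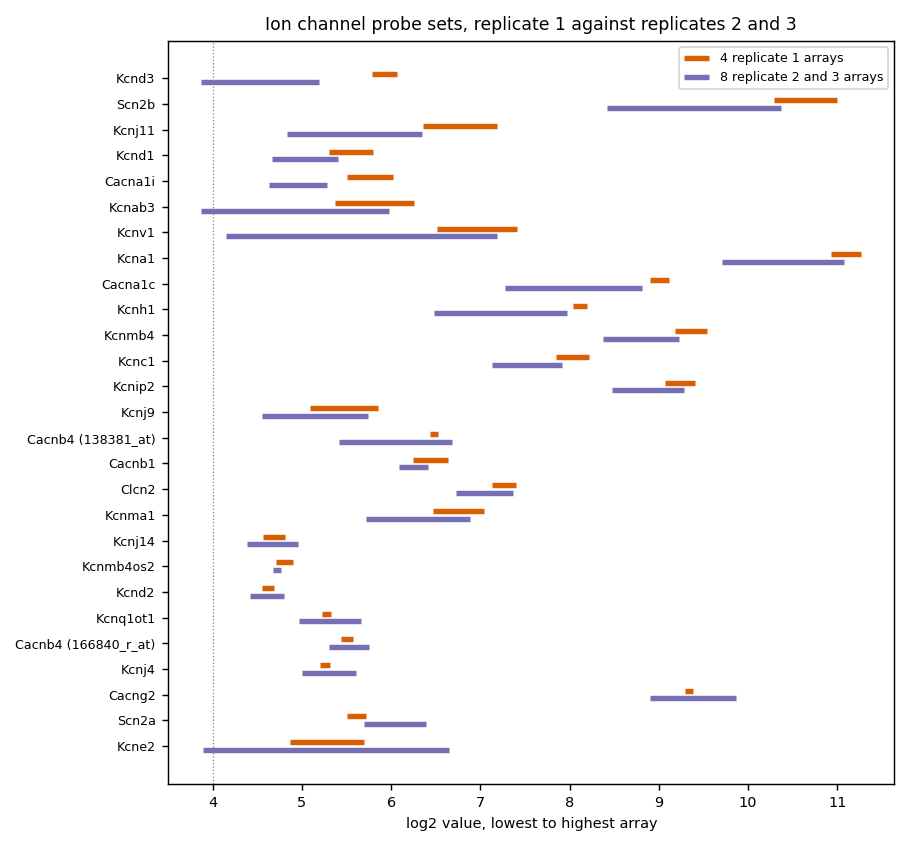
Range of log2 values of the 27 measured channel probe sets over the 4 replicate 1 arrays (orange) and the 8 arrays of replicates 2 and 3 (purple), from the lowest to the highest array, with a dotted line at the filter of 4. For 5 members the orange bar lies wholly above the purple one, by little for Kcnj11 (6.36 against 6.34).

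No channel member passed the test in any of 7 comparisons. Each was fitted with limma over all 3541 probe sets that reached the filter and called at a Benjamini-Hochberg adjusted p under 0.05. The question of the first was which genes kainate changed within an hour. Averaged over the genotypes, 0 of 27 members were called, against 0.141% of all probe sets, and 2 of 27 (7.41%, both lower) had an unadjusted p under 0.05, against 11.3%. Members lay lower after kainate for 23 and higher for 4, with a median difference of -0.18 against -0.04 over all probe sets tested. Of all 3541 probe sets, 2422 were lower and 1119 higher. With a filter of log2 5 on 3 arrays the median was -0.201 for 24 members and -0.137 for all 1892 probe sets. Both doubted arrays were also omitted without a batch term, a setting chosen after seeing the data. There 15 members were lower and 12 higher with a median of -0.02. With the batch as a term as well, 18 were lower and 9 higher with a median of -0.08. Quantile normalization of the deposited values again gave 16 lower and 11 higher, with a median of -0.07. Within replicate 1 the member median was -0.01, and within replicates 2 and 3 it was -0.25. The 3′ minus 5′ log2 difference of the actin control probe sets, a sign of RNA quality, was 2.20 to 2.44 on kainate arrays of replicates 2 and 3 and 1.74 to 1.83 on their saline arrays. In replicate 1 it was 1.61 to 1.77 on kainate arrays and 1.92 to 2.00 on saline arrays. Its part in the kainate differences was not tested.

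Cacnb4, an auxiliary beta subunit that brings calcium channel pores to the membrane, was the member most clearly parted by kainate. Its _at probe set read 6.44, 5.93 and 5.41 in mutant mice given kainate and 6.53, 6.52 and 6.46 in mutant mice given saline. In control mice it read 6.45, 6.24 and 6.15 after kainate and 6.53, 6.68 and 6.58 after saline. All 6 kainate arrays lay below all 6 saline arrays, which held for 1 of 27 members (3.7%) and for 0.452% of all probe sets. The replicate 1 kainate arrays were only just below. The averaged difference was -0.45 ± 0.15 (SE, 95% interval -0.78 to -0.11), with an adjusted p of 0.349 by limma. It was -0.08 within replicate 1 and -0.63 within replicates 2 and 3, and -0.31 in a batch-blocked fit that omitted both doubted arrays (adjusted p = 0.267). Without mutant kainate replicate 1, and under no other alternative run, Cacnb4 passed, at -0.58 (adjusted p = 0.0371). In that fit 58 of 3525 probe sets were called, against 5 of 3541 with all arrays. Its other probe set, _r_at, differed by -0.11 ± 0.05 (adjusted p = 0.458) with overlapping arrays.

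Kcna1 and Kcne2 followed the same order with more overlap. Kcna1 read 10.93, 10.30 and 9.71 in mutant mice given kainate, 11.13, 10.87 and 10.93 in mutant mice given saline, 11.09, 10.69 and 10.59 in control mice given kainate, and 11.27, 11.07 and 10.89 in control mice given saline. Every kainate array was below the saline array of the same genotype and number. The groups still overlapped, with replicate 1 the highest array of each. How many of all probe sets had this order by pairs was not computed. The difference was -0.48 ± 0.19 (SE, 95% interval -0.91 to -0.05, adjusted p = 0.384). In the replicate 1 arrays it was -0.19 and in the others -0.62.

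Kcne2, an auxiliary subunit known for high expression in the choroid plexus, had the largest negative difference. It read 5.12, 5.87 and 3.89 in mutant mice given kainate, 5.23, 5.81 and 6.65 in mutant mice given saline, 4.87, 5.81 and 5.86 in control mice given kainate, and 5.69, 6.59 and 6.37 in control mice given saline. The groups overlapped. The difference was -0.82 ± 0.38 (SE, 95% interval -1.68 to 0.05, adjusted p = 0.472), and -0.49 in a batch-blocked fit that omitted both doubted arrays (adjusted p = 0.282). Of 6 choroid plexus and ependymal markers, only Kcne2 itself and Folr1 were on the array, and the 3 Folr1 probe sets lay under the filter at 2.48 to 3.71. Folr1's _r_at probe set read 3.58 to 3.71 on kainate arrays of replicates 2 and 3 and 3.04 to 3.13 on all other arrays. Its _at probe set read 2.89 to 3.08 and its _f_at probe set 2.48 to 2.65 over all arrays, without that step. The part of choroid plexus tissue in the Kcne2 values was not tested, and fewer cells of a type and less RNA per cell cannot be told apart in whole tissue.

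Scn2b, a sodium channel beta subunit, read 10.86, 9.34 and 8.42 in mutant mice given kainate, 10.29, 10.05 and 10.34 in mutant mice given saline, 10.71, 9.58 and 9.58 in control mice given kainate, and 10.998, 10.37 and 10.03 in control mice given saline. Within replicates 2 and 3 all kainate arrays were below all saline arrays, and in replicate 1 the mutant pair ran the other way. The share of all probe sets parted in this way within replicates 2 and 3 was not computed. The difference was -0.60 ± 0.40 (SE, adjusted p = 0.623). It was 0.14 in the replicate 1 arrays, -0.97 in the others and -0.36 in a batch-blocked fit that omitted both doubted arrays. The 3 largest positive differences were those of Cacnb1, another calcium channel beta subunit (0.16 ± 0.09, adjusted p = 0.535), Kcnd1 (0.14 ± 0.26, adjusted p = 0.876) and Kcnj14 (0.07 ± 0.10, adjusted p = 0.837). None of these exceeded the spread between arrays by the test. In the batch-blocked fit Kcnd1 stood at 0.22 and Kcnj14 at -0.04.

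**Figure D3:**
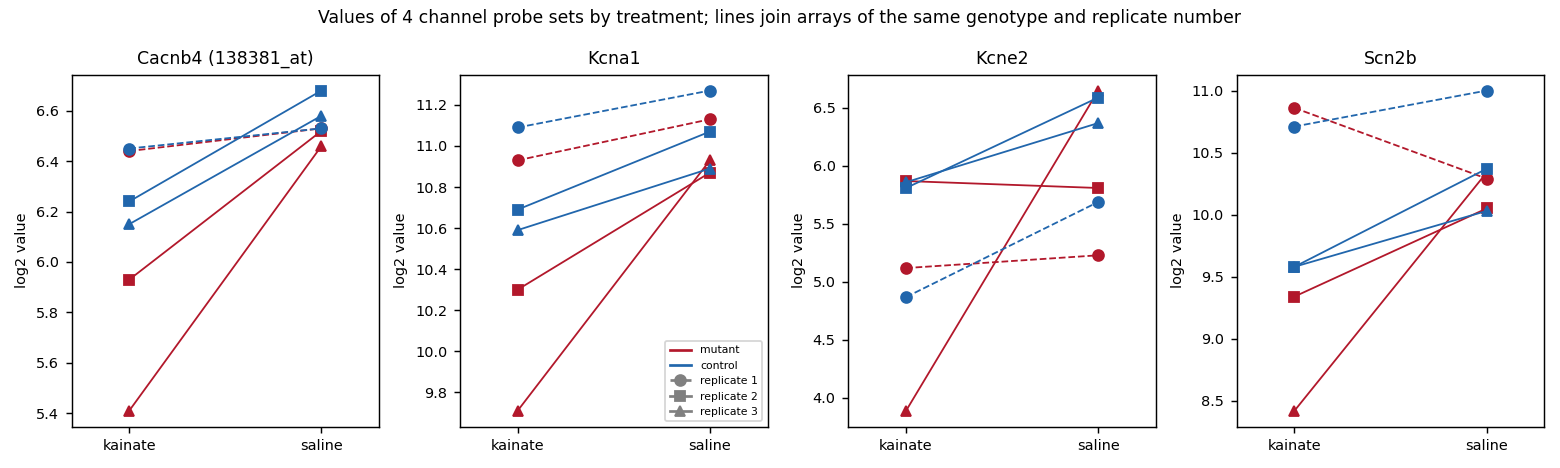
Log2 values after kainate and after saline for Cacnb4 (_at probe set), Kcna1, Kcne2 and Scn2b, with lines joining arrays of the same genotype and replicate number and dashed lines for replicate 1. For Cacnb4 all 6 kainate points lie below all 6 saline points, and for Scn2b the mutant replicate 1 line slopes against the others.

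By role, all 3 auxiliary subunits of voltage-gated potassium channels, both sodium channel members and both calcium channel pores were lower after kainate, with median differences of -0.17, -0.43 and -0.22. Of the 7 voltage-gated potassium channel pores 6 were lower (median -0.20), as were 3 of 4 inward rectifiers (median -0.20). In the same comparison 23 of all 27 members and 2422 of all 3541 probe sets tested were lower. None of these members was called, and the order of the groups of genes was not tested. In a batch-blocked fit that omitted both doubted arrays Kcnab3 stood at 0.12, Kcnip2 at 0.10, Kcnh1 at 0.08 and Kcnv1 at 0.16, so those directions did not hold there.

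In control mice alone 0 of 27 members were called, against 0.0282% of all probe sets, with 0 at an unadjusted p under 0.05, against 4.46%. The members were split, with 16 lower and 11 higher after kainate and a median of -0.05 against 0.01 over all probe sets. Of all 3541 probe sets, 1660 were lower and 1881 higher. With a filter of log2 5 on 3 arrays the median was -0.057 for 24 members and -0.014 for all 1892 probe sets. Only Cacnb4 (_at probe set) had kainate arrays wholly below saline arrays (1 of 27, 3.7%, against 4.63%), at -0.32 ± 0.21 with an adjusted p of 1, and no member had them above (against 6.02%). The other large negative differences were those of Kcne2 (-0.70 ± 0.54) and Scn2b (-0.51 ± 0.56), and the positive ones those of Kcnd1 (0.35 ± 0.36), Kcnv1 (0.28 ± 0.67) and Kcnh1 (0.18 ± 0.37), each with an adjusted p of 1. In the batch-blocked fit that omitted both doubted arrays Kcnv1 stood at 0.10. The 95% interval of the difference lay within 1 of 0 for 19 of 27 members, and for the other 8 it took in a 2-fold difference in at least 1 direction.

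In mutant mice alone 0 of 27 were called, against 0.0282%, and 3 of 27 (11.1%, all lower) had an unadjusted p under 0.05, against 8.47%. Members were lower for 25 and higher for 2, with a median of -0.27 against -0.08 over all probe sets. Of all 3541 probe sets, 2601 were lower and 940 higher. With a filter of log2 5 on 3 arrays the median was -0.358 for 24 members and -0.257 for all 1892 probe sets. With both doubted arrays omitted and without a batch term 14 members were lower and 13 higher, with a median of -0.06 against -0.05. Kainate arrays lay wholly below saline arrays for 3 members, both Cacnb4 probe sets and Kcnj9 (11.1%, against 8.44% of all), and wholly above for none (against 1.67%). Kcnj9, an inward rectifier opened by G proteins, read 5.09, 4.75 and 4.55 after kainate and 5.22, 5.11 and 5.32 after saline. In control mice its arrays overlapped, at 5.85, 4.97 and 4.97 after kainate and 5.57, 5.74 and 5.26 after saline. The Cacnb4 _r_at probe set read 5.48, 5.47 and 5.47 after kainate and 5.57, 5.75 and 5.62 after saline in mutants. Without mutant kainate replicate 1 the Cacnb4 _at probe set passed at -0.84 (adjusted p = 0.0348), where 67 of 3525 probe sets were called, against 1 of 3541 with all arrays. Its difference was -0.58 with all arrays and -0.34 in a batch-blocked fit that omitted both doubted arrays. Kcne2 (-0.94 ± 0.54, adjusted p = 0.604), Scn2b (-0.69 ± 0.56, adjusted p = 0.657) and Kcnv1 (-0.69 ± 0.67, adjusted p = 0.693) had the largest negative differences. In the batch-blocked fit they stood at -0.25, -0.26 and 0.23.

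**Figure D4:**
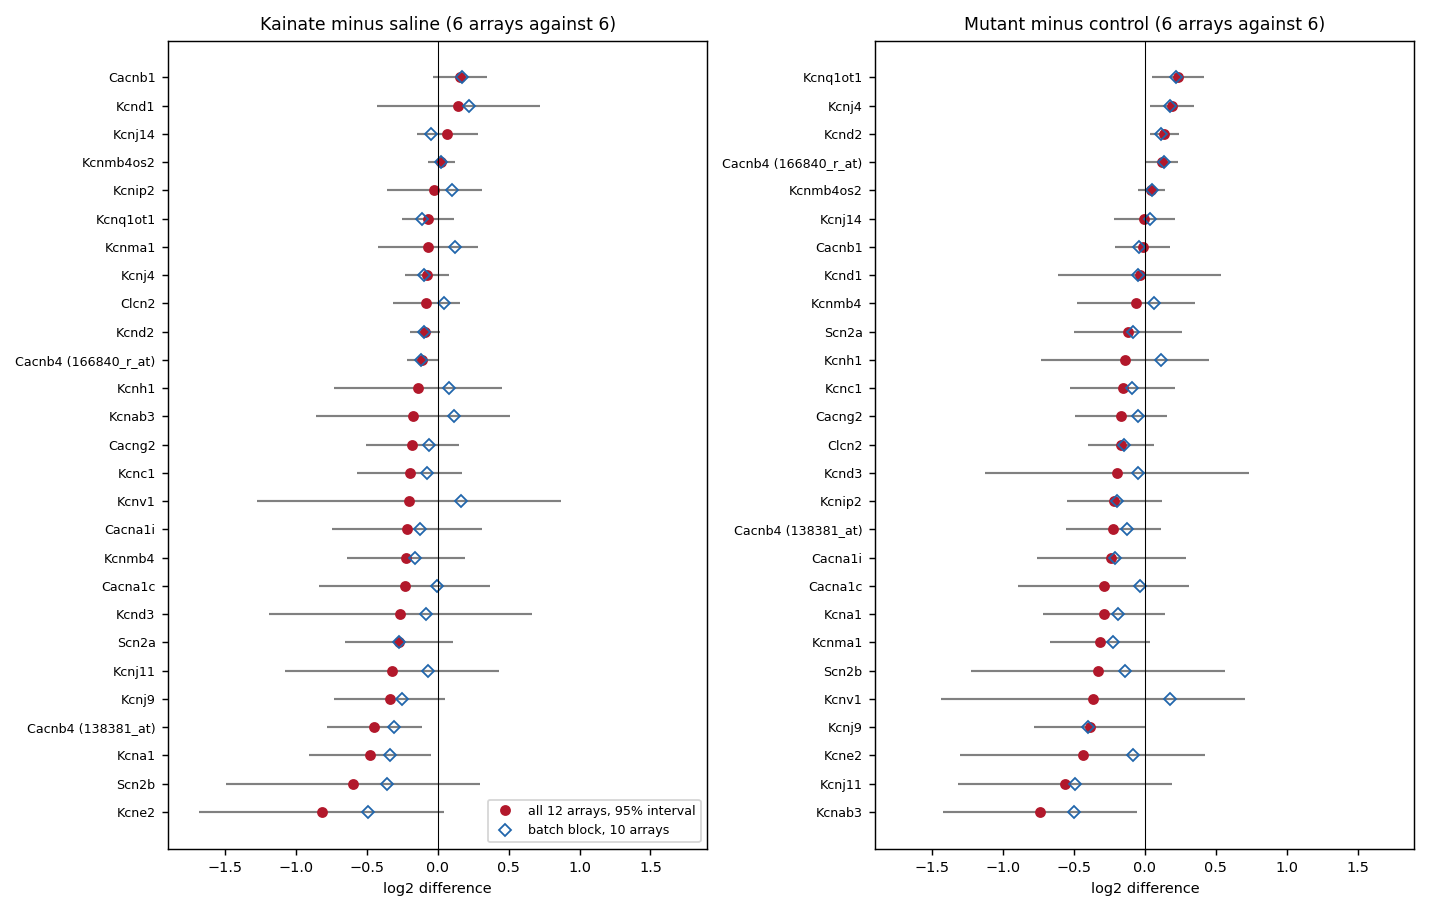
Log2 differences of the 27 measured channel probe sets with 95% intervals from the limma fit, for kainate minus saline and mutant minus control, each averaged over the other factor, with open diamonds for the batch-blocked fit without both doubted arrays. No member was called; the interval of Cacnb4 (_at probe set) for kainate runs from -0.78 to -0.11 and that of Kcnab3 for genotype from -1.43 to -0.06.

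Loss of CREB and CREM was examined next. The full cAMP response element, TGACGTCA, was searched in RefSeq promoters of assembly GRCm38.p6, from 250 bases before to 50 after each gene's start, together with the 5-base site within it, TGACG, on both strands. Promoters were listed for 33 of the 43 member genes and for 20 of the 26 measured ones. None of the 33 held the full element, against 2.03% of 27025 genes. The 5-base site was found in 10 of 33 (30.3%) and in 7 of the 20 measured genes (35%), against 23% of all genes. A match is a run of letters and not a shown binding site. The 5-base sites of the 7 measured genes are shown, with up to 25 bases on either side on the gene's strand and the 5-base site in capitals, because these are the members with a letter match to the missing factors' element.
Cacna1c, chr6:119196541-119196595, minus strand: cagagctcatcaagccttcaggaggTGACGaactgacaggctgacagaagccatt
Cacna1i, chr15:80287141-80287195, plus strand: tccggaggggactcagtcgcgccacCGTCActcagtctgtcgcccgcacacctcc
Clcn2, chr16:20716814-20716868, minus strand: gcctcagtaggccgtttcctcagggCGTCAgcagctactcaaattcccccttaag
Kcnc1, chr7:46396218-46396261, plus strand: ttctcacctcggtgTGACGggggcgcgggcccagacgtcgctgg
Kcne2, chr16:92292142-92292196, plus strand: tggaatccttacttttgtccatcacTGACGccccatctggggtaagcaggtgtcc
Kcne2, chr16:92292246-92292300, plus strand: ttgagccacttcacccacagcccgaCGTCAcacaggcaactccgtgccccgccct
Kcnj4, chr15:79505379-79505433, minus strand: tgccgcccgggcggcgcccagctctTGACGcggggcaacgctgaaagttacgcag
Kcnq1ot1, chr7:143296560-143296614, minus strand: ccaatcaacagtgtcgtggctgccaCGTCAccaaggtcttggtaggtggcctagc

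Averaged over treatments, 0 of 27 members were called between mutant and control mice, as was 0% of all probe sets. At an unadjusted p under 0.05 there were 4 higher and 2 lower in mutants (22.2%, against 19.1% of all). Members were lower in mutants for 22 and higher for 5, with a median of -0.17 against -0.01 over all probe sets. Of all 3541 probe sets tested, 1809 were lower and 1732 higher. With a filter of log2 5 on 3 arrays the median was -0.206 for 24 members and -0.191 for all 1892 probe sets. Quantile normalization again gave 13 members lower and 14 higher with a median of 0.01. Omitting both doubted arrays gave 18 lower and 9 higher with a median of -0.05. The count of lower members thus depended on both. No member had the 6 mutant arrays wholly on one side of the 6 control arrays (against 0.339% of all on each side). Of the 7 measured genes with a 5-base site, Kcnj4 and Kcnq1ot1 were higher in mutants, with probe sets that read nearly alike on every array. Cacna1c, Cacna1i, Clcn2, Kcnc1 and Kcne2 were lower, at -0.29, -0.24, -0.17, -0.16 and -0.44. None of the 7 was called. In the batch-blocked fit Cacna1c, Kcnc1 and Kcne2 stood at -0.03, -0.09 and -0.08.

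Kcnab3, a cytoplasmic beta subunit of voltage-gated potassium channels, had the largest negative genotype difference. It read 6.01, 5.22 and 3.87 in mutant mice given kainate, 5.37, 5.27 and 5.27 in mutant mice given saline, 6.25, 5.70 and 5.66 in control mice given kainate, and 5.91, 5.98 and 5.95 in control mice given saline. After saline all 3 mutant arrays lay below all 3 control arrays, and in each of the 6 pairs of the same treatment and number the mutant was lower. The averaged difference was -0.74 ± 0.30 (SE, 95% interval -1.43 to -0.06, adjusted p = 0.255). In the replicate 1 arrays it was -0.39 and in the others -0.92, and without mutant kainate replicate 3 it was -0.45 (adjusted p = 0.361). After saline it was 5.31 ± 0.06 in mutant mice and 5.95 ± 0.04 in control mice (SD, n = 3), a difference of -0.64. The SE of that difference was 0.43 in the fit over all 12 arrays (adjusted p = 0.647), 0.21 without mutant kainate replicate 3 (adjusted p = 0.24) and 0.05 with only the 6 saline arrays in the fit (adjusted p = 0.0777). Kcnab3 was not called under any of these.

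Kcnj11 was lower in mutants by the pair as well. It read 6.46, 5.84 and 4.83 in mutant mice given kainate, 6.36, 5.84 and 6.21 in mutant mice given saline, 7.19, 6.18 and 5.77 in control mice given kainate, and 7.19, 6.34 and 6.24 in control mice given saline. The mutant array was below the control array of the same treatment and number in all 6 pairs, while the groups overlapped, with replicate 1 the highest array of each. The share of all probe sets with such an order by pairs was not computed. The difference was -0.56 ± 0.34 (SE, 95% interval -1.31 to 0.19, adjusted p = 0.367), and -0.49 in a batch-blocked fit that omitted both doubted arrays (adjusted p = 0.146). Kcnj9, at -0.39 ± 0.17 (adjusted p = 0.261), was the other member lower in mutants at an unadjusted p under 0.05.

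Kcnj4, a strong inward rectifier, and the noncoding Kcnq1ot1 were higher in mutants by 0.19 ± 0.07 and 0.24 ± 0.08 (adjusted p = 0.247 for both). Kcnj4 read 5.20, 5.23 and 5.32 in mutant mice given kainate, 5.31, 5.61 and 5.38 in mutant mice given saline, 5.27, 5.05 and 5.18 in control mice given kainate, and 5.20, 5.00 and 5.20 in control mice given saline. Only after saline did the mutant arrays lie wholly above the control arrays. The probe sets of Kcnj4 and Kcnq1ot1 differed by at most 0.07 on any array. In all, 3 tested probe sets, that of Kcnq1ot1 among them, lay within 0.1 of Kcnj4 on all 12 arrays. Kcnd2, a main pore of the A-type current, was 0.14 ± 0.05 higher (adjusted p = 0.247), with 4.55 to 4.80 on mutant arrays and 4.42 to 4.60 on control arrays. It was among the members just inside the filter and spanned 0.38 over all arrays. Probe sets under the filter were also higher in mutants after saline, by 0.04 at the median. The part of that shift in these differences was not tested.

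After saline 0 of 27 members were called, with 4 (14.8%, all higher) at an unadjusted p under 0.05, against 12.1% of all. Mutant arrays lay wholly above control arrays for 4 members (14.8%, against 29% of all probe sets) and wholly below for Kcnab3 alone (3.7%, against 5.11%). The 4 were Kcnq1ot1 (0.32 ± 0.11), Kcnj4 (0.30 ± 0.10), the Cacnb4 _r_at probe set (0.19 ± 0.07) and Kcnd2, each with an adjusted p of 0.385 or more. All 4 are _r_at or _i_at probe sets, as are 9 of the 27 measured members. The array's makers built the _r_at probe sets with relaxed rules. The other Cacnb4 probe set did not share the difference, with 6.53, 6.52 and 6.46 in mutant mice and 6.53, 6.68 and 6.58 in control mice. Probe sets under the filter lay the same way after saline, with mutant arrays wholly above control arrays for 15 of 22 members (68.2%) and for 75.2% of all. That shift was small, 0.05 at the median for the members and 0.04 for all, and its part in the differences above was not tested. Members were higher in mutants for 12 and lower for 15, with a median of -0.09 against 0.04. Of all 3541 probe sets tested, 2077 were higher and 1464 lower. With a filter of log2 5 on 3 arrays the median was -0.103 for 24 members and -0.052 for all 1892 probe sets.

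After kainate 0 of 27 members were called between the genotypes and 1 (3.7%) had an unadjusted p under 0.05, against 4.72% of all. This was Kcnma1, with 6.47, 6.66 and 5.72 in mutant mice and 7.04, 6.73 and 6.62 in control mice (-0.52 ± 0.22, adjusted p = 0.55, and -0.32 in the batch-blocked fit), where mutant kainate replicate 2 overlapped the control arrays. No member's arrays were wholly apart (against 2.43% of all higher and 3.78% lower). Members were lower in mutants for 21 and higher for 6, with a median of -0.30 against -0.03. Of all 3541 probe sets tested, 1893 were lower and 1648 higher. With a filter of log2 5 on 3 arrays the median was -0.335 for 24 members and -0.316 for all 1892 probe sets. With both doubted arrays omitted 16 members were lower and 11 higher with a median of -0.05. The largest negative differences were those of Kcnv1 (-0.85 ± 0.67), Kcnab3 (-0.84 ± 0.43) and Kcnj11 (-0.67 ± 0.47), each with an adjusted p of 0.55. Without mutant kainate replicate 3 Kcnv1 stood at 0.10 and Kcnab3 at -0.26.

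Whether kainate acted differently in the genotypes was tested as an interaction, and 0 of 27 members were called, as was 0% of all probe sets, with 0 at an unadjusted p under 0.05, against 0.875%. The lowest adjusted p of a member was 0.973. The kainate difference was more negative in mutants for 25 members and less so for 2, with a median of -0.19 against -0.09. Over all 3541 probe sets tested the counts were 2603 and 938. With a filter of log2 5 on 3 arrays the median was -0.215 for 24 members and -0.244 for all 1892 probe sets. With both doubted arrays omitted the member counts were 18 and 9, with a median of -0.09. Kcnv1 (-0.96 ± 0.95), Kcnh1 (-0.64 ± 0.53) and Kcnd1 (-0.40 ± 0.51) had the largest negative values. In the batch-blocked fit that omitted both doubted arrays they stood at 0.13, -0.14 and -0.42. The 95% interval lay within 1 of 0 for 12 of 27 members, and for the other 15 it took in a 2-fold difference between the genotypes' kainate responses in at least 1 direction.

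Other genes of neuronal excitability were read beside the channels from a list of 102 partners, pumps and further channels. Of these 31 were on the array and 17, with 21 probe sets, reached the filter. None was called in any of the 7 comparisons. Averaged over the genotypes, 19 of 21 were lower and 2 higher after kainate, with a median of -0.25. Of all 3541 probe sets tested, 2422 were lower there, with a median of -0.04. Averaged over treatments 19 were lower and 2 higher in mutants, with a median of -0.25. For that comparison 1809 of all probe sets were lower, with a median of -0.01. Several of the 21 are probe sets of Kctd4, all lower in both comparisons, so the counts are not counts of separate genes. This list was not recomputed under the alternatives. With a filter of log2 5 on 3 arrays the medians over all 1892 probe sets were -0.137 for kainate and -0.191 for genotype. Mutant kainate replicate 3 also entered both comparisons. There Fgf12 read 7.34, against 8.77 to 9.44 on the other arrays, while Fgf14 read highest there, at 5.14. The part of brightness and of that array in the list's medians was not tested. Slc12a5, the neuronal chloride extruder, read 11.13, 10.27 and 10.43 in mutant mice given kainate, 10.73, 10.68 and 10.99 in mutant mice given saline, 11.30, 10.80 and 10.86 in control mice given kainate, and 11.32, 11.02 and 11.19 in control mice given saline. Slc12a5 was picked after its values were seen and was not called. After saline its mutant arrays lay wholly below its control arrays, which held for 3 of the 21 probe sets (14.3%, against 5.11% of all). After kainate its arrays overlapped. Of the channel genes left out by the rule, Kcnj2 read 8.28 to 9.60 on kainate arrays and 5.91 to 6.84 on saline arrays.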

How the data were processed

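The deposited series table holds the authors' GCRMA expression values on the log2 scale, 1 per probe set and array, made with GCRMA in R 2.4.1 per the submitters' processing notes; the GCRMA version is not given in the sources used here. GCRMA adjusts background by probe sequence, normalizes between arrays and summarises probes, which holds dim probe sets near a floor. Values were used as deposited, and the number of arrays limits the precision. The 66 control probe sets were left out, and 3541 probe sets with log2 of at least 4 on at least 3 arrays were tested. Groups come from the sample titles. limma 3.58.1 in R 4.3.3 (lmFit, contrasts.fit, eBayes) fitted a mean per group to all 12 arrays (8 residual degrees of freedom), with Benjamini-Hochberg adjustment over all probe sets tested in each of 7 comparisons. The fit was tested on simulated data. Symbols came from the platform annotation; all 49 members were found in the RefSeq table of GRCm38.p6.

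Members, lists and tests were chosen with earlier results of these data known. Per comparison the rule named every called member, the 3 largest differences in each direction and up to 6 members whose groups do not overlap, besides the 3 members on either side of the filter and any measured member's level. Kcnma1 and Slc12a5 are given array by array as chosen after their values were seen. Arrays share replicate numbers across groups, but the labels state no pairing, so pairs by number are description only. Deviations from group means correlated for same-numbered arrays at 0.383 to 0.627 for kainate in controls, 0.47 to 0.855 for genotype after saline and 0.19 to 0.578 for genotype after kainate, but at 0.479, 0.0448 and -0.0779 for kainate in mutants. Alternatives were a replicate block, a batch block, other filters, a further quantile normalization, eBayes with trend and robust settings, fits on only the arrays compared and leaving out arrays.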

Additional observations from a re-analysis of the deposited data

How the results depend on the processing

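The count of called members was 0 in 142 of 144 alternatives, and ran from 0 to 1 when leaving out 1 array for kainate in mutant mice and for kainate averaged over genotypes (Cacnb4 without mutant kainate replicate 1, where 67 and 58 of 3525 probe sets were called, against 1 and 5 of 3541). With the replicate number as a block, for the pairing of arrays, 0 members were called in every comparison. The members' medians depended on mutant kainate replicate 3: without it they were -0.056 against -0.273 for kainate in mutant mice, -0.021 against -0.295 for genotype after kainate and -0.012 against -0.194 for the interaction. For genotype after kainate the median was also 0.026 with no filter (49 probe sets) and -0.061 after quantile normalization again. It was -0.046 without both doubted arrays, with or without a batch block. With a filter of log2 5 on 3 arrays it was -0.335 for 24 members against -0.316 for all 1892 probe sets. Leaving out 1 array gave medians of -0.085 to 0.005 for kainate in control mice, -0.439 to -0.056 for kainate in mutant mice, -0.124 to 0.019 for genotype after saline, -0.561 to -0.021 for genotype after kainate, -0.338 to -0.012 for the interaction, -0.282 to -0.09 for kainate averaged and -0.269 to -0.037 for genotype averaged. Of 857 alternative values of named members, 19 changed sign and none of those 19 had been called. In a batch-blocked fit that omitted control kainate replicate 3 and mutant kainate replicate 3, Kcnv1 gave 0.231 for kainate in mutants, 0.247 for genotype after kainate and 0.133 for the interaction, and Kcnj14 -0.045 for kainate averaged. Without these arrays and with no block, a setting added after seeing the data, they gave 0.266, 0.247, 0.133 and -0.019. Quantile normalization again gave 0.087 for Kcnj14 in kainate in mutants and 0.04 for Kcnd2 in the interaction. Leaving out 1 array, Kcnv1 ran from -1.363 to 0.266 for kainate in mutants and -1.528 to 0.101 for genotype after kainate, Kcnj14 from -0.066 to 0.008 (0.001 in a further case) and Kcnmb4os2 from -0.009 to 0.094 for kainate in mutants, Kcnmb4os2 from -0.009 to 0.094 and Kcnd2 from -0.081 to 0.01 for the interaction, Kcne2 from -0.698 to 0.012 for genotype after saline, and Kcnd1 from -0.044 to 0.289 for kainate averaged. The causes were not tested. With 3 arrays per group, 95% intervals of most members exclude a doubling in the averaged comparisons (22 of 27 for kainate, 21 for genotype). Whether they exclude smaller changes differs by member, since the SEs differed.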
